A study of Mus musculus with 6 samples.

Results

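The Dlk1-Dio3 locus of mouse chromosome 12 carries a dense group of miRNA hairpins. Members were taken by their miR number from the table of miRNA levels deposited for the series, which gave 87 mature strands of 1831 miRNAs, drawn from 45 numbers. Of these, 42 are 5p strands, 44 are 3p strands, and 1 has no strand in its name. By name and identical sequence, RefSeq places 82 of them on chromosome 12 of GRCm38.p6, over 180 kb from 109563710 to 109743784. miR-496b carries one of the numbers but lies on chromosome 19, outside the cluster, and 4 strands (miR-376c-3p, miR-485-5p, miR-487b-3p and miR-539-3p) had no identical RefSeq entry.

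The locus is imprinted. Its miRNAs are cut from long noncoding transcripts (Meg3, antisense Rtl1, Rian and Mirg) that are expressed from the maternally inherited chromosome, while Dlk1, Rtl1 and Dio3 are expressed from the paternal one. The miRNAs are known best from brain, placenta and the embryo. A hairpin can give rise to a 5p and a 3p strand, and bases 2 to 8 of a strand, its seed, are the main part that pairs with target mRNAs.

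The series compared miRNA levels between Cdr1as-/- mice and control littermates in small intestinal mucosa, with 3 arrays in each group, to find miRNAs whose level changes when this circular RNA is missing. The littermates are labelled wildtype and the other mice cdr1as knockout, and the tissue is labelled small intestine. The mice were of the C57BL/6J background, and the knockout line was made by injecting 1-cell embryos with Cas9 protein and 2 guide RNAs against the Cdr1as locus, so that the deletion is not limited to one cell type. Age and sex are not given for these 6 samples, the labels do not say that each is a separate animal although the study's legend speaks of animals, and p-values measure the spread between these samples. Cdr1as itself was not measured by the arrays, so the genotype labels could not be checked here. The tissue is a mixture of cells, in which fewer cells of a type and less RNA per cell cannot be told apart.

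Littermate 3 stood apart. Its median unnormalized miRNA signal was 236, against 8.75 and 11.2 on littermates 1 and 2, and the Cdr1as-/- arrays had 29.2, 14.1 and 11.2. After normalization the members' levels on littermates 1 and 2 had a rank correlation of 0.91 over the 75 members that were tested, which share probe design and array. The correlation between littermates 1 and 3 was 0.48, and that between littermate 3 and Cdr1as-/- 1 was 0.83. The first 4 arrays (all littermates and Cdr1as-/- 1) were on one slide and the other 2 on a second slide. The main counts and the members described singly are therefore given with all 6 arrays and without littermate 3. What set littermate 3 apart was not tested.

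Detection was uneven. All 87 members were well above background on littermate 3 and on Cdr1as-/- 1, 75 on littermate 1, 86 on littermate 2, 27 on Cdr1as-/- 2 and 80 on Cdr1as-/- 3. Only 27 members (31.0%) were above background on all 6 arrays, compared with 56.7% of all miRNAs. A miRNA was tested when all arrays of either group had it above background, which kept 75 members of 1635 miRNAs. Of these, 48 passed through the littermates alone and 0 through the Cdr1as-/- arrays alone.

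The following strands carry the results below, and capitals mark the seed. The first 5 had levels in the Cdr1as-/- mice that did not overlap those of the 3 littermates.
miR-494-3p: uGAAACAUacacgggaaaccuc
miR-496a-5p: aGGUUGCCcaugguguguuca
miR-329-5p: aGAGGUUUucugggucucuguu
miR-412-5p: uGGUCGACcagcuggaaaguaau
miR-758-3p: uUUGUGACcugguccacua
The next are strands that were lower in the Cdr1as-/- mice once littermate 3 was left out, with the opposite strand of 3 of the hairpins.
miR-134-3p: cUGUGGGCcaccuagucacc
miR-134-5p: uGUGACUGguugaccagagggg
miR-487b-3p: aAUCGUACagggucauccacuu
miR-487b-5p: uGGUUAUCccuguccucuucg
miR-673-3p: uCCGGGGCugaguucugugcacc
miR-673-5p: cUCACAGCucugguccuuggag
miR-411-3p: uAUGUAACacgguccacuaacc
miR-299b-3p: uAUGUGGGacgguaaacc
The last are strands that share a seed with another member, shown to let their responses be set side by side.
miR-379-3p: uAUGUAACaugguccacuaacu
miR-494-5p: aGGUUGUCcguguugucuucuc
miR-410-5p: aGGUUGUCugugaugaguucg
miR-376b-5p: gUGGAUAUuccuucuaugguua
miR-376c-5p: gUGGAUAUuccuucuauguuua
miR-381-3p: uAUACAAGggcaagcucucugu
miR-539-3p: cAUACAAGgauaauuucuuuuu
On GRCm38.p6, miR-494-3p lies at chr12:109715367-109715388 and miR-412-5p at chr12:109743303-109743325, both on the plus strand and both inside Mirg hairpins of the distal part of the locus. The strands of miR-134 lie at chr12:109734145-109734166 (5p) and chr12:109734184-109734203 (3p). miR-299b-3p is read from the minus strand, at chr12:109710645-109710662.

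With all 6 arrays, the cluster did not move as a block. The median log2 fold change of its 75 tested members (Cdr1as-/- over littermates) was -0.065, beside -0.067 over the 1635 miRNAs tested. A single member, miR-494-3p, was higher at an unadjusted limma p below 0.05, where 0.122% of all miRNAs were, and 0 members were lower, where 0.245% of all miRNAs were. After Benjamini-Hochberg adjustment in limma 0 of the 1635 miRNAs passed (0%), members included, with every adjusted p at 1.0. By the methods' t-test 0 passed as well, with 1 lower member (miR-412-5p) and 0 higher ones at an unadjusted p below 0.05, beside 1.16% and 0.122% of all miRNAs. The Cdr1as-/- levels did not overlap those of the littermates in 4 members that were lower (2.69% of all miRNAs) and in 1 that was higher (0.428% of all miRNAs).

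**Figure D1:**
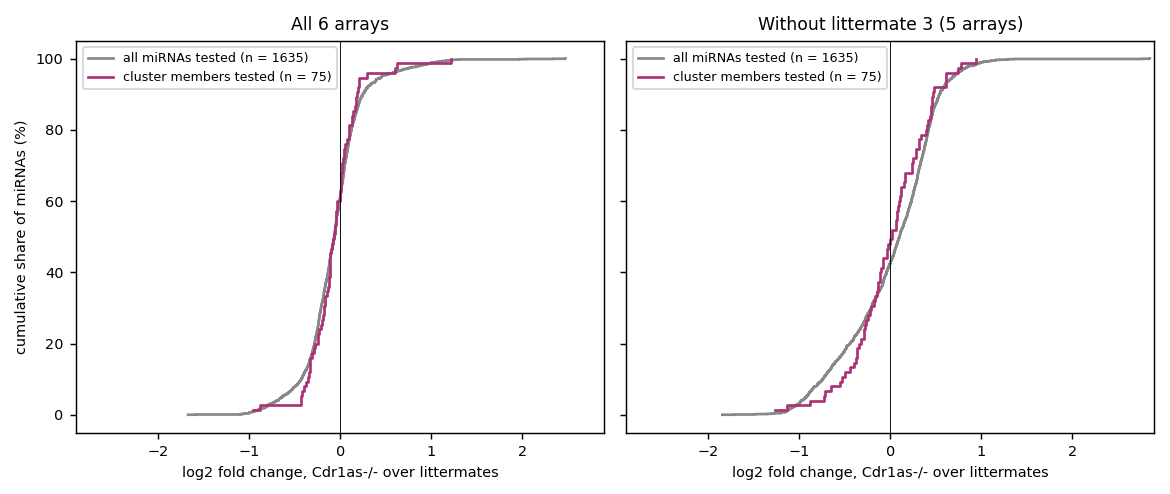
Cumulative share of miRNAs (%) against the log2 fold change of Cdr1as-/- over littermates, for the 75 tested members and all 1635 tested miRNAs, with all 6 arrays (left) and without littermate 3 (right). With 6 arrays both curves cross 0 at a similar height, with 62.7% of members and 61.4% of all miRNAs below 0.

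Among the Mirg strands, miR-494-3p was the member with higher levels in every Cdr1as-/- mouse. Its deposited log2 levels were 9.32, 9.69 and 8.19 in littermates 1 to 3, and 9.89, 10.41 and 10.56 in the Cdr1as-/- mice. The 2 groups did not overlap, and littermate 3 was the lowest of all 6. The means were 9.07 ± 0.78 and 10.29 ± 0.35 (SD, n = 3 each), a log2 fold change of 1.22 (SE 0.45, limma adjusted p = 1.0). The exact two-sided permutation p was 0.1, the smallest that 3 against 3 can give. Without littermate 3 the log2 fold change was 0.78 (SE 0.28, limma adjusted p = 0.299). On the scanner signal scaled to its 75th percentile it was 0.85 with 6 arrays and 0.31 without littermate 3, and neither passed the unadjusted threshold, so the direction held but not the call. Within the first slide Cdr1as-/- 1 was the only Cdr1as-/- array, and with slide as a block the log2 fold change was 0.82 and the call was lost. Leaving out littermate 1, Cdr1as-/- 2 or Cdr1as-/- 3 also ended the call with 6 arrays. Its partner strand, miR-494-5p, had log2 fold changes of -0.045 and -0.22 with 6 and 5 arrays.

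4 members had lower levels in every Cdr1as-/- mouse than in any littermate. All 4 were below background on Cdr1as-/- 2 and passed the filter through the littermates alone, the group in which they were higher, so their values are given as a description. Among the 27 members detected on all 6 arrays, 0 were lower without overlap. miR-412-5p was at 3.78, 3.83 and 3.74 in the littermates and at 3.49, 3.54 and 3.58 in the Cdr1as-/- mice, the tightest groups of the 4. Its log2 fold change was -0.25 (SE 0.21) with 6 arrays and -0.27 (SE 0.22) without littermate 3, but -0.031 with normexp and -0.074 with quantile normalization of the scanner signal. For miR-496a-5p the levels were 3.33, 3.43 and 3.53 against 3.22, 2.69 and 3.09, a log2 fold change of -0.43 (SE 0.24), or -0.38 without littermate 3 and -0.28 without Cdr1as-/- 2. The lowest of these, Cdr1as-/- 2, was at the lowest value deposited for that array, where levels have no order. For miR-329-5p they were 3.49, 3.61 and 3.73 against 3.43, 2.69 and 3.43, with Cdr1as-/- 2 again at that array's lowest value, and its log2 fold change was -0.43 (SE 0.29), or -0.37 without littermate 3 and -0.18 without Cdr1as-/- 2. For miR-758-3p they were 3.58, 3.43 and 3.48 against 3.37, 3.40 and 3.09, a log2 fold change of -0.22 (SE 0.22), or -0.22 without littermate 3, which turned to 0.25 with normexp background correction and to 0.057 with scanner quantiles. None of the 4 passed the unadjusted limma threshold.

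**Figure D2:**
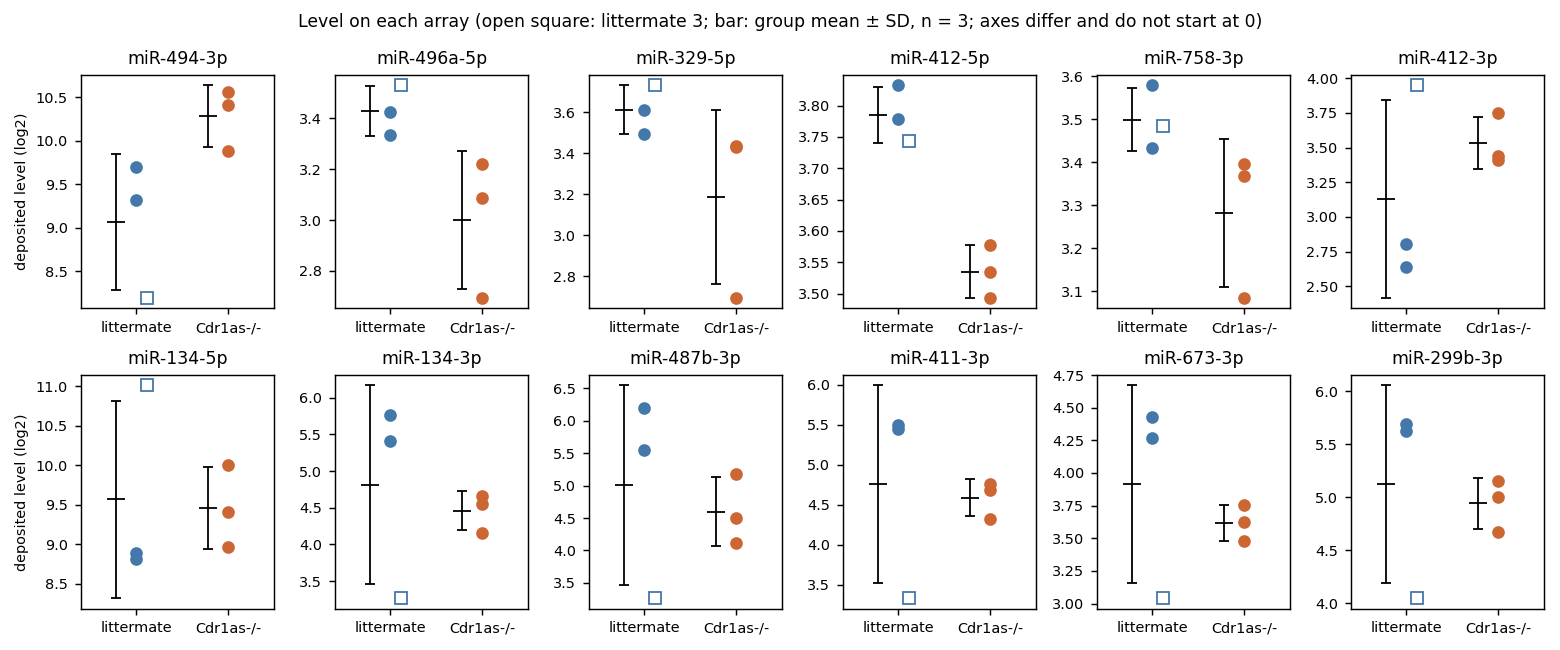
Deposited log2 level on each array of 12 members, with littermates in blue (littermate 3 as an open square), Cdr1as-/- mice in orange, and the group mean ± SD (n = 3) as a black bar; axes differ between panels and do not start at 0. In the upper row miR-494-3p is higher in all 3 Cdr1as-/- mice, and in the lower row littermate 3 lies beyond all the other arrays.

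The other members that ranked by p did not pass the unadjusted limma threshold with all 6 arrays. Among those with negative values were miR-376a-5p (log2 fold change -0.43, SE 0.32), from a family whose precursors are known to be edited by ADAR enzymes, and miR-544-3p (-0.33, SE 0.26). Without littermate 3 these were -0.18 and -0.50, and the value for miR-376a-5p turned to 0.043 with normexp background correction. Both strands were below background on Cdr1as-/- 2 and passed the filter through the littermates alone, the group in which they were higher. Their values are given as a description. Among those with positive values were miR-679-5p (0.60, SE 0.46), miR-540-3p (0.29, SE 0.38), miR-379-5p (0.18, SE 0.25) and miR-495-5p (0.21, SE 0.35). Without littermate 3 these 4 were at 0.74, 0.61, 0.32 and 0.45. Single arrays moved miR-679-5p, which was at 0.28 without Cdr1as-/- 1 and at 1.09, past the unadjusted limma threshold, without Cdr1as-/- 2. On Cdr1as-/- 2 miR-679-5p was below background. On the scanner signal miR-495-5p was at -0.32, so its sign depended on the scaling.

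Leaving out littermate 3 changed the picture, for the cluster and for the array as a whole. 6 members were then lower (8.0%) and 1 was higher (1.33%) at an unadjusted limma p below 0.05. Of all miRNAs 11.6% and 2.08% were, so by limma both shares were below the background. In limma 0 of the 1635 miRNAs passed adjustment (0%), and the lowest adjusted p was 0.180, and 0.241 among the members. The methods' t-test, run after seeing the data, gave 8 lower (10.7%) and 1 higher (1.33%) members, and 0 after adjustment. Of all miRNAs 7.77% and 2.32% were called, so by this test the lower share was above the background and the higher one below it. With slide as a block, which sets Cdr1as-/- 1 alone against littermates 1 and 2, 8 members passed adjustment of 324 miRNAs in all (19.8%), and when Cdr1as-/- 2 was left out as well, 5 members of 201 (12.3%) did. The members' median log2 fold change was 0.017, beside 0.10 over all miRNAs. Groups did not overlap in 21 members that were lower (28.0%) and in 13 that were higher (17.3%), beside 21.7% and 20.9% of all miRNAs. Of the 21 lower members only 5 were above background on Cdr1as-/- 2, so the others passed the filter through the littermates, where they were higher, and of the 13 higher members 11 were.

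Of the 6 lower members, 5 were 3p strands, beside 109 of the 189 miRNAs lower by the same threshold. The first, miR-134-3p, from the hairpin whose 5p strand is known for limiting dendritic spine size in neurons, was at 5.77 and 5.41 in littermates 1 and 2 and at 4.16, 4.55 and 4.66 in the Cdr1as-/- mice, with littermate 3 at 3.27. The Cdr1as-/- levels thus lay between littermate 3 and the other littermates. The log2 fold change was -1.13 without littermate 3 (SE 0.26, limma adjusted p = 0.241) and -0.36 with it (SE 0.67). For miR-487b-3p the levels were 6.20 and 5.54 against 4.12, 5.17 and 4.51, with littermate 3 at 3.27, and its log2 fold change was -1.27 (SE 0.35, limma adjusted p = 0.241) without littermate 3 and -0.40 with it. Here too littermate 3 was below every Cdr1as-/- mouse. For miR-411-3p the levels were 5.49 and 5.45 against 4.32, 4.68 and 4.76, with littermate 3 at 3.33, and its log2 fold change was -0.88 (SE 0.24, limma adjusted p = 0.241) without littermate 3 and -0.17 with it.

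For miR-673-3p, in the same order, the levels were 4.43 and 4.27 against 3.48, 3.63 and 3.75, with littermate 3 at 3.04, and its log2 fold change without littermate 3 was -0.73 (SE 0.23, limma adjusted p = 0.259). For miR-299b-3p they were 5.69 and 5.63 against 4.68, 5.15 and 5.005, with littermate 3 at 4.05, and its log2 fold change without littermate 3 was -0.72 (SE 0.24, limma adjusted p = 0.260). In both, littermate 3 was again below every Cdr1as-/- mouse. The sixth, miR-341-5p, named after its values were seen, had a log2 fold change of -0.66 (SE 0.22, limma adjusted p = 0.260). Both miR-673-3p and miR-341-5p were below background on Cdr1as-/- 2. They passed the filter through the littermates alone, where littermates 1 and 2 were higher, so their values are given as a description. With littermate 3 in the fit, the log2 fold changes of miR-673-3p, miR-299b-3p and miR-341-5p were -0.29, -0.18 and -0.34. The exact permutation p of each of the 6 was 0.2 without littermate 3, the smallest that 3 against 2 can give. The scaled scanner signal gave miR-411-3p, miR-673-3p and miR-299b-3p log2 fold changes of -0.90, -0.90 and -0.85 that no longer passed the unadjusted limma threshold. With normexp miR-411-3p fell to -0.25 and miR-673-3p to -0.10, and neither passed. With only 1 littermate left the spread comes from the Cdr1as-/- arrays, and the log2 fold changes stayed between -0.86 and -0.90 for miR-411-3p, -0.65 and -0.81 for miR-673-3p, and -0.68 and -0.75 for miR-299b-3p, without passing. For miR-487b-3p the value was -0.94 without littermate 1, also without passing, and the methods' t-test did not call it.

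The strands miR-540-3p, miR-770-3p, miR-667-5p and miR-487b-5p had log2 fold changes of 0.61, 0.61, 0.47 and 0.46 (SE 0.28, 0.30, 0.23 and 0.23), and none passed the unadjusted limma threshold (adjusted p = 0.373 for each). When Cdr1as-/- 2 was left out as well, miR-540-3p, miR-770-3p and miR-667-5p passed it, at 0.83, 0.81 and 0.53. For miR-770-3p, from the hairpin within Meg3, the levels were 6.67 and 6.60 in littermates 1 and 2, 9.46 in littermate 3, and 7.78, 6.85 and 7.12 in the Cdr1as-/- mice. Again littermate 3 was beyond all Cdr1as-/- mice, now on the high side, and with it in the fit the log2 fold change was -0.33.

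Among the 34 members without overlap once littermate 3 was left out, chosen because the Cdr1as-/- arrays lay beyond littermates 1 and 2, Cdr1as-/- 1, the Cdr1as-/- array with the highest unnormalized signal, was the farthest of the 3 from littermates 1 and 2 in 20, Cdr1as-/- 2 in 8 and Cdr1as-/- 3 in 6. The part of signal strength in these differences was not tested. The median absolute difference of littermate 3 from the mean of littermates 1 and 2 was 0.59 over the tested members and 0.89 over all miRNAs, beside 0.15 between littermates 1 and 2 in both. The most extreme member was miR-673-5p, named after its values were seen, at 7.72 and 7.23 in littermates 1 and 2 and at 13.16 in littermate 3, with 9.59, 7.98 and 7.68 in the Cdr1as-/- mice.

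**Figure D3:**
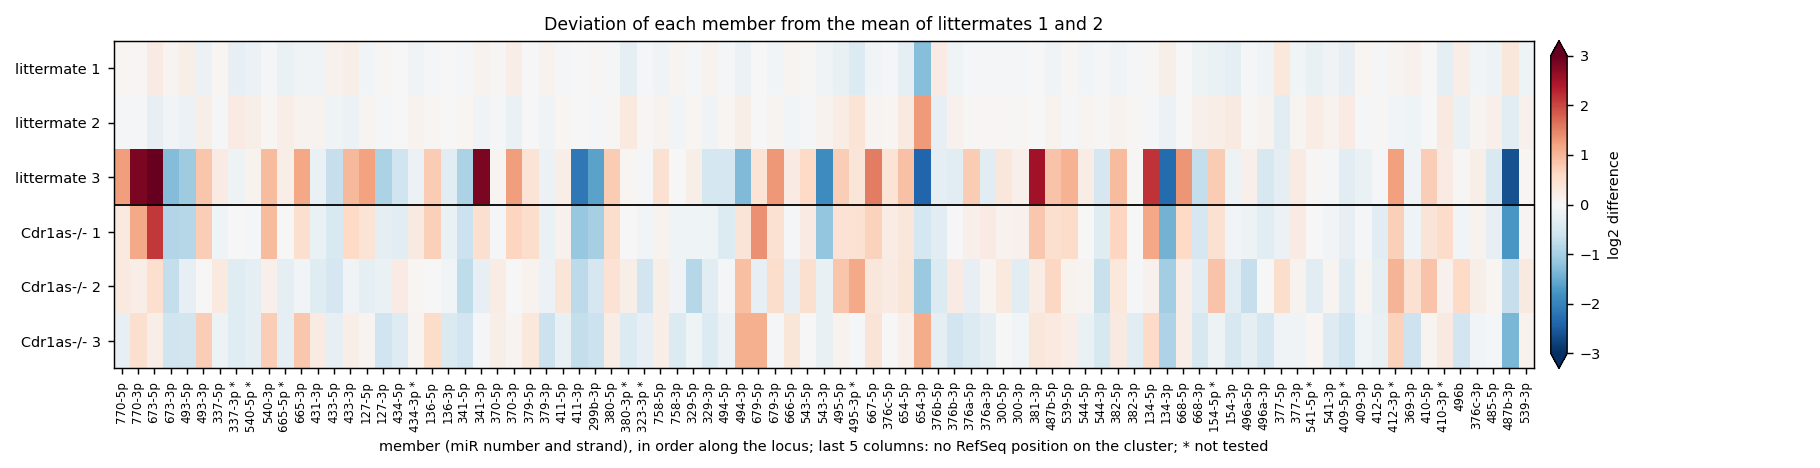
Difference in log2 level of each of the 87 members (columns, in order along the locus) from the mean of littermates 1 and 2, on each of the 6 arrays (rows); red is higher, blue lower, and the colour scale ends at 3 in both directions. Littermate 3 has the strongest colours, up to 5.69 for miR-673-5p.

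Strands of the same hairpin often had values of opposite sign. Both strands were tested for 28 hairpins. Without littermate 3, the 5p and 3p strands had opposite signs in 18 of them (64.3%, beside 41.5% of the 516 hairpins in the whole table). In 13 of these the 5p value was positive and the 3p value negative, and in 5 the reverse. The hairpin of miR-134 had 0.61 for 5p (SE 0.32, limma adjusted p = 0.373) and -1.13 for 3p, that of miR-487b had 0.46 and -1.27, and that of miR-673 had 0.94 and -0.73. The hairpin of miR-494 ran the other way, with -0.22 for 5p and 0.78 for 3p. Of these strands, miR-487b-5p, miR-673-3p and miR-494-5p were below background on Cdr1as-/- 2. Among the 28 hairpins, only those of miR-134, miR-411 and miR-543 had both strands above background on that array. Members were above background on every array less often than all miRNAs (31.0% against 56.7%). The shares of 64.3% and 41.5% may therefore come from sets that differ in detection, and are given as a description. Over the tested members the median log2 fold change was 0.12 for 37 5p strands and -0.11 for 37 3p strands, beside 0.13 and 0.034 over all miRNAs.

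With all 6 arrays the signs were opposite in 14 of the 28 hairpins, beside 51.4% of all. Without littermate 3 they were opposite in 13 (46.4%, beside 48.6%) on the scanner signal scaled to its 75th percentile, in 19 (67.9%, beside 45.7%) with its quantile normalization, and in 16 (57.1%, beside 45.3%) with normexp. The share thus moved with the scaling. These are counts of signs, from sets that may differ in detection, and were not tested. For miR-134-5p the levels were 8.89 and 8.81 in littermates 1 and 2, 11.01 in littermate 3, and 10.005, 8.97 and 9.41 in the Cdr1as-/- mice, and with 6 arrays its log2 fold change was -0.11 (SE 0.66).

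**Figure D4:**
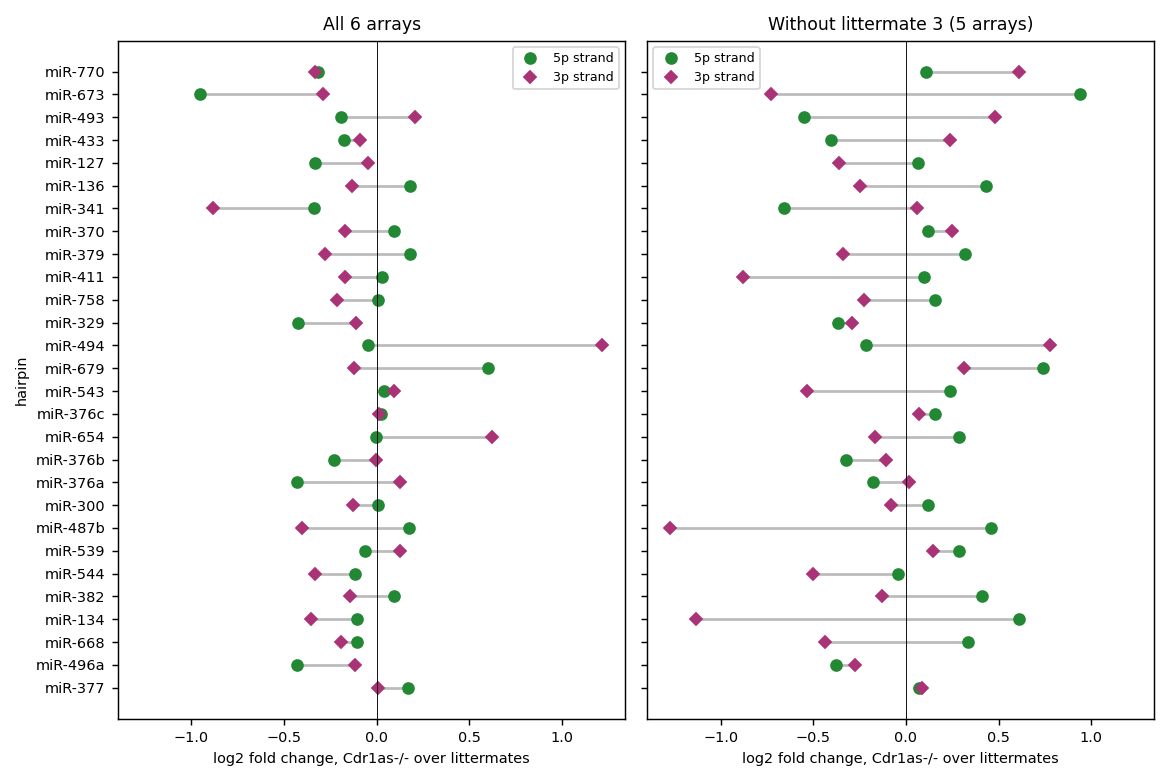
Log2 fold change of Cdr1as-/- over littermates for the 5p strand (green circle) and the 3p strand (purple diamond) of the 28 hairpins with both strands tested, with all 6 arrays (left) and without littermate 3 (right), in order along the locus where RefSeq places them. Without littermate 3 the markers lie on opposite sides of 0 in 18 hairpins, and with 6 arrays in 14.

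Base composition varied along with these values. The share of G in the strand had a rank correlation of 0.39 with the log2 fold change without littermate 3 over the 75 tested members, and of 0.40 over all 1635 miRNAs. It had one of 0.49 over the members, and of 0.43 over all, with the deviation of littermate 3. With all 6 arrays the correlation with the log2 fold change was 0.022 over the members and -0.095 over all. These points share arrays, depth and labelling. The 21 members that were lower without overlap had a median G share of 22.7% and the 13 that were higher one of 38.1%. The part of base composition in the strand pattern was not tested.

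4 seeds were shared by a pair of members each. The pair miR-411-3p and miR-379-3p, with the seed AUGUAAC, had log2 fold changes of -0.88 and -0.34 (SE 0.24 and 0.25) without littermate 3, and miR-379-3p did not pass the unadjusted limma threshold (adjusted p = 0.434). The pair miR-410-5p and miR-494-5p (GGUUGUC) had 0.44 and -0.22, miR-376b-5p and miR-376c-5p (UGGAUAU) had -0.32 and 0.16, and miR-381-3p and miR-539-3p (AUACAAG) had 0.46 and 0.15. None of these 6 passed it either. The signs were the same in 2 pairs and opposite in the other 2. Below background on Cdr1as-/- 2 were miR-379-3p, miR-494-5p, miR-376b-5p, miR-376c-5p and miR-539-3p, which passed the filter through the littermates alone. On Cdr1as-/- 3, miR-379-3p was also below background and at that array's lowest value. The signs of these pairs are therefore given as a description.

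By place in the locus, the 15 tested members on the Rtl1 side had log2 fold changes from -0.96 to 0.29 with 6 arrays (median -0.084), the 4 on the Rian side from -0.88 to 0.094, and the 53 on the Mirg side from -0.43 to 1.22 (median -0.058). Both strands of miR-770, on the Meg3 side, had -0.31 and -0.33. Without littermate 3 the medians were -0.0014 on the Rtl1 side, 0.090 on the Rian side and -0.032 on the Mirg side, and the miR-770 strands had 0.11 and 0.61. Of the 6 members lower at an unadjusted limma p below 0.05, 1 was on the Rtl1 side, 1 on the Rian side and 4 on the Mirg side.

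The antisense miRNAs of Rtl1, miR-127 and miR-433, match the Rtl1 mRNA over their whole length and are known to direct its cleavage. For miR-127-3p the levels were 4.30, 4.22 and 3.32 in the littermates and 3.97, 4.07 and 3.66 in the Cdr1as-/- mice, so the groups overlapped through littermate 3. Its log2 fold change was -0.050 (SE 0.34) with 6 arrays and -0.36 (SE 0.24, limma adjusted p = 0.394) without littermate 3. The values of miR-433-3p were -0.089 (SE 0.38) and 0.24 (SE 0.28). Those of miR-433-5p were -0.17 (SE 0.29) and -0.40 (SE 0.23), and those of miR-127-5p were -0.33 (SE 0.42) and 0.066 (SE 0.27). Both strands of miR-127 and of miR-433 were below background on Cdr1as-/- 2. The values of miR-434-5p, from the same transcript, were 0.047 (SE 0.30) and -0.15 (SE 0.26). Those of miR-411-5p, on the Mirg side, were 0.030 (SE 0.25) and 0.095 (SE 0.26). The Mirg members miR-376a-3p, miR-376b-3p, miR-376c-3p, miR-409-3p and miR-541-3p had log2 fold changes between -0.11 and 0.13 with 6 arrays and between -0.13 and 0.068 without littermate 3. Their SE lay between 0.22 and 0.30, so changes of a similar size could not be resolved on these arrays.

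12 members were not tested, among them miR-412-3p, the strand opposite miR-412-5p. It was at 2.80 and 2.64 in littermates 1 and 2, which were the lowest values deposited for those arrays, at 3.95 in littermate 3, and at 3.44, 3.75 and 3.41 in the Cdr1as-/- mice. It was above background on littermate 3, Cdr1as-/- 1 and Cdr1as-/- 3 alone. The levels in the Cdr1as-/- mice were above those of littermates 1 and 2 and below that of littermate 3, and no fold is given. The study reported higher miR-412 in Cdr1as-/- mucosa by array and by Q-PCR, without naming the strand. That is the reverse of the direction of miR-412-5p here, and the direction of miR-412-3p against littermates 1 and 2 alone. The other untested members were miR-154-5p, miR-323-3p, miR-337-3p, miR-380-3p, miR-409-5p, miR-410-3p, miR-434-3p, miR-495-3p, miR-540-5p, miR-541-5p and miR-665-5p, and 10 of the 12 were at an array's lowest value at least once. miR-410-3p was at 2.80, 3.33 and 3.30 in the littermates and at 3.63, 3.20 and 3.34 in the Cdr1as-/- mice, with overlapping groups.

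A further 19 miRNAs of the locus carry other numbers, and 16 of them were tested. With 6 arrays 0 of the 16 passed an unadjusted limma p below 0.05, where 0.245% of all miRNAs were lower and 0.122% higher. Without littermate 3, 2 of the 16 were lower and 0 higher, beside 11.6% and 2.08% of all miRNAs. The 2 were miR-3071-3p (log2 fold change -0.98, SE 0.30, limma adjusted p = 0.246) and miR-1188-3p (-0.64, limma adjusted p = 0.362). Both are 3p strands, and both were named after their values were seen. miR-3071-3p was at 6.37 and 6.27 in littermates 1 and 2, at 3.99 in littermate 3, and at 4.84, 5.72 and 5.46 in the Cdr1as-/- mice. On Cdr1as-/- 2 miR-1188-3p was at 2.69, the lowest value deposited for that array, where levels have no order.

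Levels of miRNAs that mark other cell types varied between the arrays. All 8 epithelial markers, such as miR-194-5p and miR-200b-3p, were above background on all 6 arrays. Their summed level, the log2 of the sum of unlogged levels, lay between 17.05 and 17.17 on 5 arrays and was 16.04 on littermate 3. The brightest markers weigh most in such a sum. The median difference of the 8 on littermate 3 from the mean of littermates 1 and 2 was -2.96. All 7 smooth muscle and mesenchymal markers were detected on all 6 arrays, with summed levels of 11.39, 11.33 and 7.57 in littermates 1 to 3 and of 12.56, 12.29 and 10.17 in the Cdr1as-/- mice. For the 10 neural and endocrine markers, of which 6 were detected on all arrays, the summed level was 10.32, 10.36 and 8.12 against 9.12, 10.42 and 9.73. That list holds miR-7a-5p, at 9.51, 9.48 and 5.56 against 7.85, 9.57 and 8.76. The study reported lower miR-7 in Cdr1as-/- mucosa, while the levels of miR-7a-5p here overlapped between the groups. The part of miR-7a-5p in this sum was not tested. The summed level ranged over 9.25 to 12.59 in the littermates and 12.03 to 12.86 in the Cdr1as-/- mice for the 6 immune markers, and over 6.77 to 10.08 and 7.61 to 8.18 for the 3 erythroid markers. Their part in the members' values was not tested.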

How the data were processed

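Small RNA was labelled with Cy3 and read on 6 one-colour arrays, and Agilent Feature Extraction 11.0.1.1 is named in the submitters' processing notes. The scanner files deposited by the authors hold the intensity of each spot, not normalized between arrays. The authors' deposited table holds a normalized log2 level per miRNA and array, each the log2 of the mean unlogged level of 1 to 5 probes. The normalization is not given in the sources used here, and low values end at a common lowest value on 4 arrays. Its columns of fold changes and p-values were not used.

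The deposited log2 levels were tested with limma 3.58.1 in R 4.3.3 (lmFit, eBayes), adjusted over the 1635 miRNAs that all arrays of either group had above background. Named members were also compared by exact permutation over the arrays. Python 3.11.15, NumPy 2.4.6, pandas 2.3.3, SciPy 1.17.1 and matplotlib 3.10.9 were used. The fit was tested first on simulated data, with changes larger than that of any member. That test does not cover changes of the members' size. Alternatives were the scanner signal scaled to its 75th percentile or by quantiles, normexp with an offset of 50, other filters, blocks and tests, and leaving out each array. The number of arrays limits the precision. Groups came from the sample titles.

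Members and lists were chosen with earlier results of these data known. Named were both strands of miR-134 and miR-412 and of 14 well-known members, the 5 smallest p in each direction with and without littermate 3, and members whose groups did not overlap. Sequences are those of the deposited table, and positions are RefSeq's.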

Additional observations from a re-analysis of the deposited data

How the results depend on the processing

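With 6 arrays, 0 members were lower and 1 higher at an unadjusted limma p below 0.05. The lower count was 1 by the methods' t-test and by limma with an intensity trend, and 10 with array weights. Of the 1635 miRNAs, these called 19, 8 and 293 lower. The higher count was 0 on the scanner signal with either 75th percentile, with normexp and with scanner quantiles. It was also 0 by the methods' t-test, with the trend and with slide as a block, and 8 with array weights. Array weights called 162 of the 1635 miRNAs higher. Leaving out each array gave 0 to 6 lower and 0 to 1 higher members, and 0 to 0 after adjustment. Over all 1635 miRNAs it called 0 to 189 lower and 0 to 34 higher. The members' median log2 fold change was then -0.11 to 0.017, and 4 to 21 lower and 2 to 13 higher members did not overlap. The 21 and 13 came without littermate 3, where 21.7% and 20.9% of all miRNAs did not overlap. Such shares are not given for the other left-out arrays or scalings. The median was -0.24 on the scanner signal (all miRNAs -0.18) and 0.030 over members detected on all arrays. Lower members without overlap numbered 2 with normexp, 1 with scanner quantiles, 0 when detected on all arrays and 2 with a filter on the brightest probe, and higher ones 2 with scanner quantiles.

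Without littermate 3, leaving out each other array gave 2 to 7 lower and 0 to 10 higher members, 0 to 5 after adjustment, a median of 0.0039 to 0.12, and 21 to 28 lower and 15 to 25 higher members without overlap. Without littermate 3 and 1 Cdr1as-/- array, 149 to 315 of the 1635 miRNAs were lower, 14 to 284 higher, and 0 to 201 passed adjustment. Normexp gave 3 lower members (128 of all miRNAs) and 10 lower without overlap. Slide as a block gave 8 higher members and 8 after adjustment (277 and 324 of all miRNAs). Scanner quantiles and no filter each gave 2 higher (38 of 1635 and 50 of 1831 miRNAs). The scanner signal gave a median of -0.27 (all miRNAs -0.099). The filter on the brightest probe and, without littermate 3, every alternative but the scaled scanner signal were chosen after seeing the data. Signs turned for miR-376a-5p (0.043, normexp), miR-758-3p (0.25, normexp, and 0.057, scanner quantiles) and miR-495-5p (-0.32 and -0.21 on the scaled scanner signal, -0.27 with normexp, -0.097 with scanner quantiles and, over the left-out arrays, -0.022 to 0.45). The cause was not tested.

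The deviations of same-numbered samples from their group means had correlations of -0.77, 0.58 and -0.24 over the tested miRNAs. Littermate 3 enters the mean behind every littermate deviation, so these values cannot decide whether the numbers pair the samples. With the replicate block, 0 members were lower and 0 higher, so the call of miR-494-3p was lost. Signal over background limits most members, as 60 of 87 fell below background on at least 1 array.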
